A study of Mus musculus with 8 samples.

Results

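The 5 SEC14-like genes of the mouse, Sec14l1, Sec14l2, Sec14l3, Sec14l4 and Sec14l5, were followed in MIN6 cells with and without forced expression of Klf4. They were taken by their symbols from the 55536 genes of the count table, and all 5 were found. The family was chosen by the fold change of Sec14l3, among the highest between these same libraries, so its change is given below as a description, with no test. The other 4 genes came in by name. MIN6 is an insulin-producing beta-cell line from a mouse pancreatic tumour, and Klf4 is a zinc-finger transcription factor. The control group was 4 wild-type MIN6 cultures transfected with pcDNA 3 empty vector, and the other group was 4 wild-type MIN6 cultures transfected with pGloMyc-Klf4, each for 48 h with Lipofectamine 3000. The extraction text in the labels speaks of islets, although every sample is named as MIN6. Replicates 1 and 2 of each group were batch 1 and replicates 3 and 4 were batch 2, and the labels do not say what a batch shared. All libraries came from 1 cell line, the plasmids differ by name in more than the insert, and each count is a mean over cells that took up plasmid and cells that did not.

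SEC14-like proteins are named after yeast Sec14, which moves phosphatidylinositol and phosphatidylcholine between membranes. They share a CRAL-TRIO (SEC14) domain, a pocket that closes over a single lipid, followed by a GOLD domain, a fold also found in cargo receptors of the secretory pathway. Sec14l2, also called supernatant protein factor or tocopherol-associated protein, binds vitamin E and squalene and was described as a stimulator of squalene epoxidation. Sec14l3 and Sec14l4 are its close relatives, and Sec14l3 is known from airway and olfactory epithelium. Sec14l1 and Sec14l5 carry a PRELI-type domain in front of the CRAL-TRIO domain, and Sec14l1 has been described as a binding partner of the RNA sensor RIG-I.

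In the GRCm38 build, 3 of the genes lie side by side on chromosome 11. Sec14l4 (ENSMUSG00000019368, 4031462 to 4048024, plus strand) is followed after 16817 bases by Sec14l3 (ENSMUSG00000054986, 4064841 to 4077736, plus strand). Sec14l2 (ENSMUSG00000003585, 4097039 to 4123415, minus strand) starts its span 19303 bases further on, with Mtfp1 between them. Sec14l1 (ENSMUSG00000020823, 117115168 to 117159268, plus strand) is on the same chromosome, and Sec14l5 (ENSMUSG00000091712, 5147109 to 5187271, plus strand) is on chromosome 16. No exon of the 5 genes overlapped an exon of another annotated gene. The coding sequences of Sec14l2, Sec14l3 and Sec14l4, of 1209, 1203 and 1209 bases, were 73.6% to 76.1% identical over aligned bases, and those of Sec14l1 and Sec14l5, of 2145 and 2088 bases, were 69.9% identical. The longest identical run between coding sequences of different members was 48 bases, between Sec14l3 and Sec14l4. No stretch of 50 bases from a Sec14l2 or Sec14l3 transcript occurred in a transcript of any other gene. Such stretches made up 0.902% of those of Sec14l1, 0.189% of those of Sec14l4 and 0.0875% of those of Sec14l5. The read length was not given in the sources used here.

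The promoter windows of Sec14l3, of its neighbour Sec14l2 and of the most abundant member Sec14l1 are shown because Sec14l3 had the largest fold change of the family and the other two did not pass the threshold. Each window runs from 250 bases before to 50 bases after the RefSeq start (GRCm38.p6), 5′ to 3′ on the gene's strand. Capitals mark matches on either strand to CACCC, to CCACACCC, which contains CACCC, and to CCGCCC, letter patterns of the kind that KLF and SP family zinc fingers recognise. Windows were matched for 4 of the 5 genes, all but Sec14l4, and Sec14l1 had a further window at an internal start. The Sec14l2 window also lies within the gene span given above, which on the minus strand begins at 4123415.
Sec14l3, chr11:4064603-4064902, plus strand: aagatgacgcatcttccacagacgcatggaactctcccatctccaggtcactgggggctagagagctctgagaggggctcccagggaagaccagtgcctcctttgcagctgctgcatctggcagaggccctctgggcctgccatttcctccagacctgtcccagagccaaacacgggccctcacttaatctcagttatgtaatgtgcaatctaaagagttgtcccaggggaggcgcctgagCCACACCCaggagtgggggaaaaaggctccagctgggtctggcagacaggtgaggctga
Sec14l2, chr11:4118680-4118979, minus strand: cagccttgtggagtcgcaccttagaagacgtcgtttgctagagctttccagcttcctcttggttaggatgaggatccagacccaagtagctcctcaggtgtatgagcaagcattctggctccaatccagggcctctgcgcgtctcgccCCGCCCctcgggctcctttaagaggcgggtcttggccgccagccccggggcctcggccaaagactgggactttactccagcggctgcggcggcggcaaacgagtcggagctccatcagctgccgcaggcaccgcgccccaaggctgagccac
Sec14l1, chr11:117114918-117115217, plus strand: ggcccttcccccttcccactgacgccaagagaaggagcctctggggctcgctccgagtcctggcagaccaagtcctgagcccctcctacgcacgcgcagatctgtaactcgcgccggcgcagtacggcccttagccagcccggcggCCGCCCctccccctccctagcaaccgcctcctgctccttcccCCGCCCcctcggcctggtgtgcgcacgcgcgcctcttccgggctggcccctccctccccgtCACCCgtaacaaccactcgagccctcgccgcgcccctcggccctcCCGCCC
The Sec14l3 window held 1 CCACACCC, on the gene's strand at positions -9 to -2 before the start, and no CCGCCC. CCACACCC was in 3.56% of the 32851 windows of this length in the table, CACCC in 57.5% and CCGCCC in 35.7%. The Sec14l2 window held 1 CCGCCC, at -102 to -97, and no CACCC. The first Sec14l1 window held 3 CCGCCC and 1 CACCC, and its internal window held 1 CACCC. The Sec14l5 window held 1 CACCC and 1 CCGCCC, both on the opposite strand. GC content was 58.3% for Sec14l3, 63.3% for Sec14l2, 73.0% for the first window of Sec14l1 and 61.0% for Sec14l5, against a median of 52.7% over all windows. A match to these letters describes the window and does not show binding.

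Total counts per library were 45417853 to 52731176. The transfected gene checked the labels: Klf4 was at 36.1 to 42.8 CPM (a count scaled to the size of its library, with TMM factors) in control libraries and at 4532 to 5853 CPM in Klf4-transfected libraries, where endogenous and plasmid transcripts were counted together. Of 18266 genes that passed the filter on low counts, 6684 were past an adjusted p of 0.05 in edgeR's quasi-likelihood test with batch as a term, a background of 36.6%. Of all tested genes, 21.1% were higher and 15.5% were lower in Klf4-transfected libraries. All 5 SEC14-like genes passed the filter. Sec14l4 did so through the Klf4-transfected libraries alone, since 0 of 4 control libraries reached the filter's level of 0.204 CPM.

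Sec14l3 went from a trace to the second most counted member of the family. Control libraries 1 to 4 held 20, 18, 28 and 12 counts of Sec14l3, and Klf4-transfected libraries 1 to 4 held 1802, 1448, 2595 and 2227. On the CPM scale this was 0.425, 0.370, 0.568 and 0.249 against 34.9, 32.0, 49.3 and 42.2. The lowest Klf4-transfected library lay far above the highest control library, and the groups did not overlap in either batch. Mean levels were 0.403 ± 0.132 and 39.6 ± 7.79 CPM (SD, n = 4), a ratio of means of 98.3. The log2 fold change was 6.61 (SE 0.11), 6.38 in batch 1 and 6.81 in batch 2. It was the rank 178 value from the top among the 18266 tested genes. The neighbours in that ranking were Gjb5 above it, at 6.62, and Gpr6 below it, at 6.60. From the summed counts alone, 78 in control and 8072 in Klf4-transfected libraries, the rate ratio was 98.9 with an exact 95% interval of 79.2 to 125.3, which covers counting error only.

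Sec14l4, the upstream neighbour of Sec14l3, was the least counted member in both groups. Its counts were 3, 7, 4 and 0 with the empty vector and 37, 17, 30 and 34 with Klf4. Every Klf4-transfected library was above every control library, within each batch as well. Its mean CPM was 0.0722 ± 0.0591 with the empty vector and 0.577 ± 0.147 with Klf4 (SD, n = 4). The fitted log2 fold change was 2.97 (SE 0.48). The rate ratio from the summed counts, 14 and 118, was 8.06 with an exact 95% interval of 4.62 to 15.2. That interval covers counting error only, not the spread between libraries, and is not read as a test. On the log2 scale the estimate was 2.37 in batch 1 and 3.82 in batch 2. A gene that passes the filter through its higher group only had to differ, so the values of Sec14l4 are given as a description, with no test. In Klf4-transfected libraries Sec14l3 still had 48.7 to 86.5 counts for each count of Sec14l4.

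**Figure D1:**
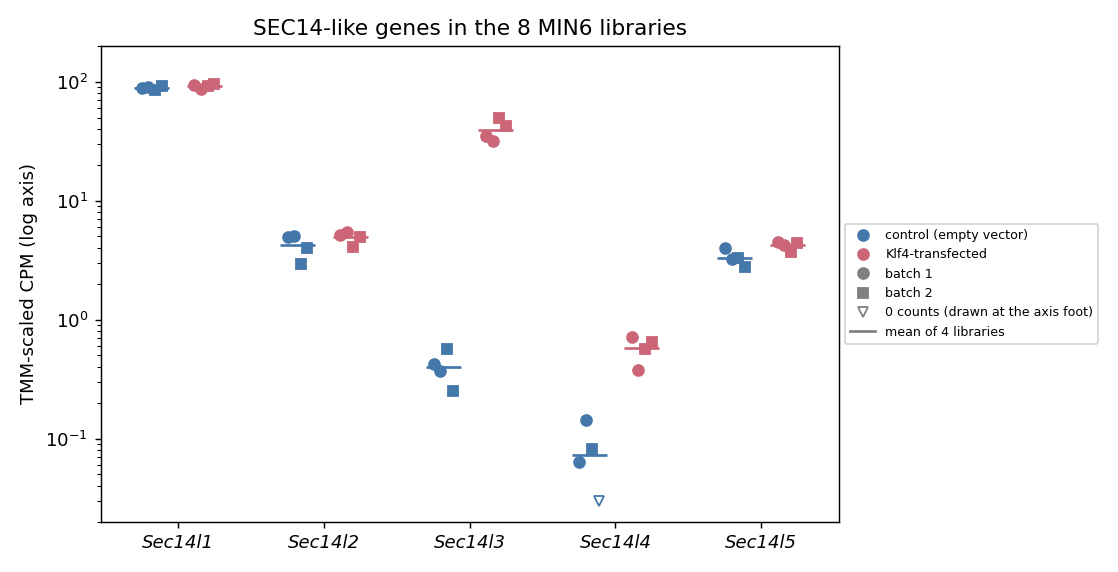
TMM-scaled CPM on a log axis for the 5 SEC14-like genes in each of the 8 libraries, with control in blue, Klf4-transfected in red, circles for batch 1, squares for batch 2 and a bar at each group mean. Sec14l3 lies at 0.249 to 0.568 CPM in control and at 32.0 to 49.3 CPM in Klf4-transfected libraries, Sec14l4 separates at a far lower level with 1 control library at 0 counts (open triangle), and the groups overlap for Sec14l1, Sec14l2 and Sec14l5.

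Sec14l2, the vitamin E and squalene binder at the other end of the cluster, did not pass the threshold. It had 4.99, 5.01, 2.96 and 4.00 CPM in control libraries 1 to 4 and 5.13, 5.50, 4.05 and 4.99 CPM in Klf4-transfected libraries 1 to 4. The groups overlapped across batches but not within either batch, where the Klf4-transfected pair lay above the control pair. How often a pair separates from a pair was not counted over all tested genes, so nothing is read from this. Its log2 fold change was 0.23 (SE 0.11, 95% interval -0.01 to 0.46, edgeR adjusted p 0.125), on 146 to 265 counts per library. The interval leaves out a change of the size seen for Sec14l4.

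Sec14l1, the most abundant member, also did not pass the threshold. It had 88.9, 90.7, 85.5 and 92.3 CPM in control libraries and 93.3, 87.2, 92.6 and 95.6 CPM in Klf4-transfected libraries. The ranges overlapped, and the difference of means of 2.84 CPM was smaller than the SD of 3.58 CPM among the Klf4-transfected libraries. With 3946 to 5043 counts per library the estimate was tight: the log2 fold change was 0.05 (SE 0.03, 95% interval -0.03 to 0.12, edgeR adjusted p 0.34).

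Sec14l5, the long relative of Sec14l1, was slightly higher in Klf4-transfected cells. It had 3.97, 3.25, 3.29 and 2.78 CPM in control libraries and 4.49, 4.22, 3.73 and 4.44 CPM in Klf4-transfected libraries. Control replicate 1 lay above Klf4-transfected replicate 3, and within each batch the groups did not overlap. As for Sec14l2, nothing is read from the separation within batches. The log2 fold change was 0.35 (SE 0.11, 95% interval 0.11 to 0.59, edgeR adjusted p 0.0187). The call was lost without the batch term (adjusted p 0.0766), in batch 1 alone (0.217), and without control replicate 2 (0.0615), control replicate 4 (0.0766), Klf4-transfected replicate 1 (0.053) or Klf4-transfected replicate 4 (0.0915).

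Of the 3 genes whose change could be read as a test, Sec14l1, Sec14l2 and Sec14l5, only Sec14l5 was past the threshold, where 36.6% of all tested genes were past it. The family was selected on this comparison, so nothing is read from that count. The groups did not overlap in CPM for 2 of the 5, Sec14l3 and Sec14l4, against 26.1% of all tested genes, 17.2% with Klf4-transfected libraries above and 8.93% with them below. Sec14l3 was chosen by its change and Sec14l4 passed the filter through its higher group, so nothing is read from this count either.

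**Figure D2:**
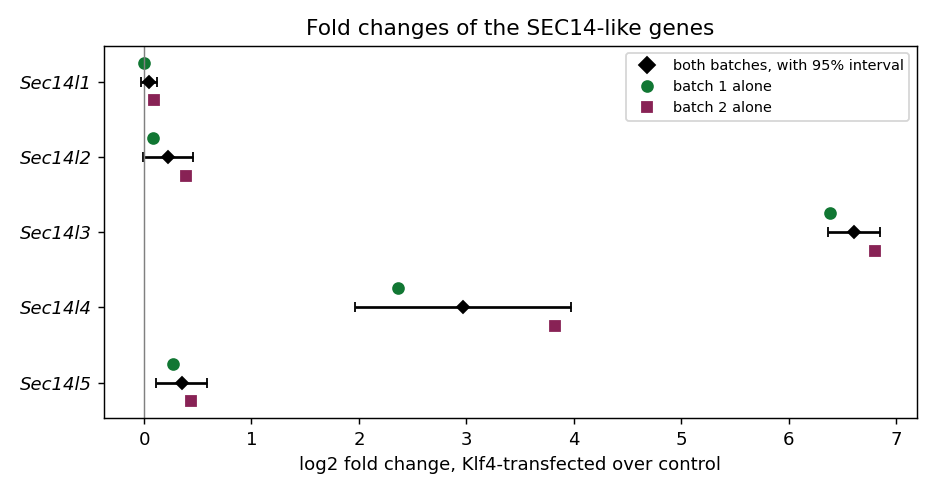
Log2 fold change of Klf4-transfected over control libraries for each SEC14-like gene, with black diamonds and 95% intervals from the fit on both batches, green circles for batch 1 alone and purple squares for batch 2 alone. Sec14l3 at 6.61 and Sec14l4 at 2.97 stand apart from Sec14l1, Sec14l2 and Sec14l5, which lie between 0.05 and 0.35. Sec14l3 was chosen by this value and Sec14l4 passed the filter through its higher group, so their intervals are not read as tests.

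Levels of different genes were compared per kilobase of merged exons. In control cells the order was Sec14l1 at 12.5 ± 0.404, Sec14l2 at 1.21 ± 0.278, Sec14l5 at 0.578 ± 0.0858, Sec14l3 at 0.145 ± 0.0476 and Sec14l4 at 0.0207 ± 0.017 CPM per kilobase (SD, n = 4). Each neighbouring pair in this order was separated, with no overlap between the 4 values of one gene and the 4 of the next. In Klf4-transfected cells Sec14l3 stood at 14.2 ± 2.80 and Sec14l1 at 12.8 ± 0.499 CPM per kilobase, and their ranges overlapped. Sec14l2 at 1.40 ± 0.176, Sec14l5 at 0.735 ± 0.0606 and Sec14l4 at 0.165 ± 0.0421 CPM per kilobase followed, again with no overlap between neighbours. Which of Sec14l1 and Sec14l3 came first depended on the length used. With the longest coding transcript in place of merged exons, Sec14l1 was at 19.8 ± 0.770 and Sec14l3 at 14.7 ± 2.90 CPM per kilobase in Klf4-transfected cells, and their ranges did not overlap.

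The make-up of the family therefore differed between the groups. Sec14l3 made up 0.613% to 1.505% of the family's CPM per kilobase in control libraries and 44.1% to 54.4% in Klf4-transfected libraries. Sec14l1 went from 84.4% to 88.2% of that sum down to 39.6% to 46.6%, while its own level differed by less than the spread between replicates. These shares use merged exons, and which of Sec14l1 and Sec14l3 was larger with Klf4 depended on the length used. By counts, with no length, Sec14l3 averaged 0.417% of the family in control and 27.8% in Klf4-transfected libraries. Sec14l1 averaged 91.8% and 65.3%. The plain sum of the 5 genes was 97.4 ± 3.35 CPM with the empty vector and 141.5 ± 9.62 CPM with Klf4 (SD, n = 4), and the difference of means for Sec14l3 alone was 39.2 CPM. These shares follow from the value on which the family was chosen and are descriptions.

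**Figure D3:**
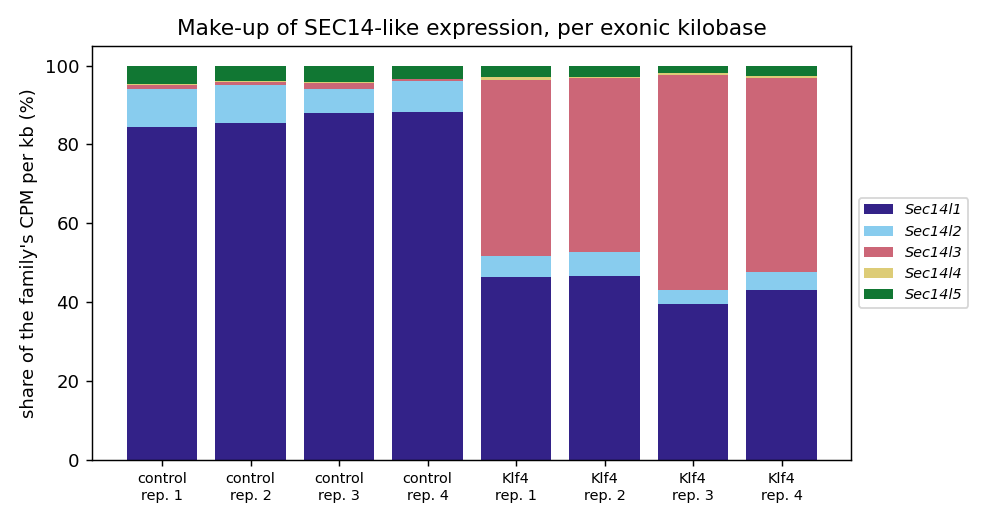
Stacked bars of the share of each SEC14-like gene in the family's summed CPM per exonic kilobase, in percent, for each of the 8 libraries. Sec14l1 takes 84.4% to 88.2% in the control bars, and Sec14l3 takes 44.1% to 54.4% in the Klf4-transfected bars. The bars depend on the length used, and by counts alone Sec14l1 has the larger share in every library.

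Batch gave a comparison that the choice of genes had not used. Across all tested genes 25.1% differed between batches with plasmid as a term, and 2 of the 5 SEC14-like genes did. Sec14l2 was lower in batch 2 by a log2 value of -0.37 (SE 0.11, edgeR adjusted p 0.0173), and this call was lost without control replicate 3 (adjusted p 0.0833), the lowest library. Sec14l3 was higher in batch 2 by 0.43 on the log2 scale (SE 0.08, edgeR adjusted p 0.000484). Nearly all of its counts came from the Klf4-transfected libraries, with both batch 2 values (49.3 and 42.2 CPM) above both batch 1 values (34.9 and 32.0 CPM), while its control values did not order by batch. The DESeq2 Wald test did not call this batch difference (log2 value 0.36, adjusted p 0.154). Klf4 itself read 4873, 4532, 4903 and 5853 CPM in Klf4-transfected replicates 1 to 4, so the library with the highest Sec14l3, replicate 3, was not the one with the highest Klf4. Sec14l3 per 1000 CPM of Klf4 was 7.16, 7.06, 10.1 and 7.21 CPM in Klf4-transfected libraries 1 to 4. The effect of the plasmid differed between batches for 0.766% of all genes in edgeR's interaction test and for none of the 5. At an unadjusted p under 0.05 it also differed for none of the 5, with unadjusted p from 0.177 for Sec14l2 to 0.493 for Sec14l5. The interaction was 0.41 (SE 0.39) for Sec14l3 and 1.44 (SE 1.09) for Sec14l4, so differences between batches of that size could not be told from 0. Leaving out 1 library moved the Sec14l4 interaction to between 0.49 (without control replicate 4) and 5.54 (without control replicate 3). No interaction of the 5 genes passed the threshold with any 1 library left out, and none did in the DESeq2 Wald test of Sec14l1, Sec14l2, Sec14l3 and Sec14l5, which gave no value here for Sec14l4.

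The nearest 3 protein-coding genes on each side of Sec14l2, Sec14l3 and Sec14l4 come to 7 genes, all tested, of which 0 were higher and 1 was lower, with a median log2 fold change of 0.01 against -0.01 over all tested genes. None of the 7 was higher at an unadjusted p under 0.05 either. Over all tested genes 21.1% were higher and 15.5% lower. Mtfp1, which lies between Sec14l3 and Sec14l2 and codes for a mitochondrial fission protein, averaged 34.7 ± 3.07 CPM with the empty vector and 34.9 ± 1.38 with Klf4 (SD, n = 4). Its log2 difference was 0.01 (SE 0.05, edgeR adjusted p 0.923). Gal3st1, the sulfotransferase gene on the other side of Sec14l4, differed by 0.08 (SE 0.07, edgeR adjusted p 0.41). The lower gene was Sf3a1, a splicing factor, at -0.10 (SE 0.03, edgeR adjusted p 0.00697). The neighbours of Sec14l5 included 3 of the 4 that were higher among all 19 neighbours of the family. Ppl, which codes for the plaque protein periplakin and lies 14688 bases before Sec14l5, averaged 46.7 ± 13.9 CPM with the empty vector and 80.5 ± 14.6 with Klf4 (SD, n = 4). It was higher by 0.81 on the log2 scale (SE 0.05, edgeR adjusted p 7.55e-12). Replicates 1 to 4 of Ppl read 56.4, 60.7, 33.0 and 36.7 CPM with the empty vector and 94.998, 91.2, 66.5 and 69.4 CPM with Klf4, so both groups were lower in batch 2. On the other side of Sec14l5, AU021092 had 0 counts in all 4 control libraries and 19, 21, 27 and 29 in the Klf4-transfected libraries, at least 7.63-fold higher than a floor of 3 counts per control library. It is among the 4 higher neighbours but passed the filter through the Klf4-transfected libraries only. Ubn1 was the other higher neighbour, at 0.13 (SE 0.03, edgeR adjusted p 0.00183). Of the 6 neighbours of Sec14l1, Mfsd11 was higher, at 0.18 (SE 0.03, edgeR adjusted p 0.000288), and Tnrc6c was lower, at -0.12 (SE 0.03, edgeR adjusted p 0.00556).

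**Figure D4:**
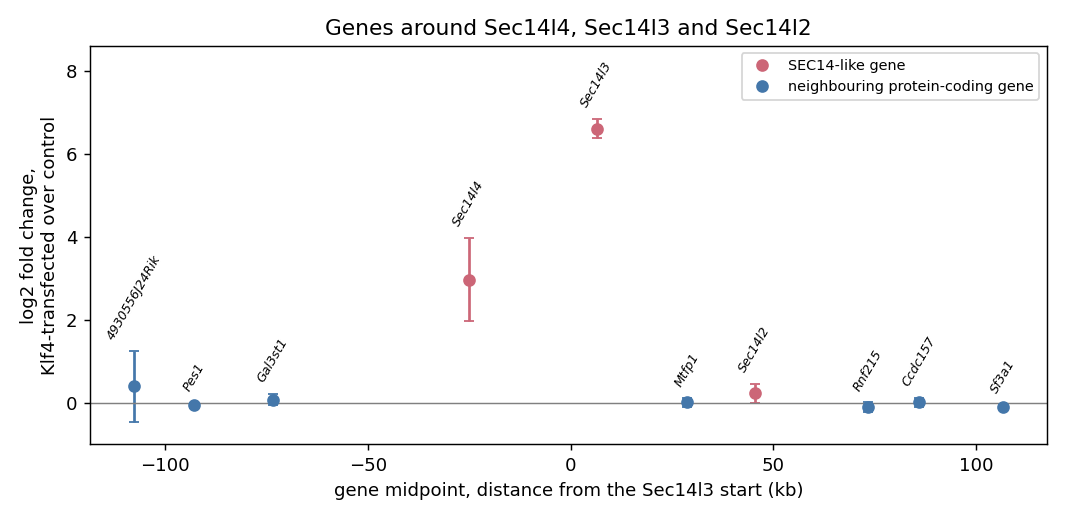
Log2 fold change with 95% interval for Sec14l4, Sec14l3 and Sec14l2 (red) and the nearest protein-coding genes (blue), placed by the distance of each gene's midpoint from the Sec14l3 start in kilobases. Sec14l3 at 6.61 and Sec14l4 at 2.97 stand above neighbours that lie near 0, with Mtfp1 at 0.01 between Sec14l3 and Sec14l2. The intervals of Sec14l3, chosen by this value, and of Sec14l4, which passed the filter through its higher group, are not read as tests.

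The 5 tested genes nearest to Sec14l3 over the 8 libraries, by the root-mean-square difference of log2 CPM, were S100a16, Alox12b, Nccrp1, Lamb3 and Itgb7. The difference was 0.28 for S100a16, an S100 calcium-binding protein gene, and 0.62 to 0.74 for the others. S100a16 had 0.297, 0.308, 0.710 and 0.269 CPM in control libraries and 29.1, 24.8, 41.8 and 42.7 CPM in Klf4-transfected libraries. Like Sec14l3 it was highest among the control libraries in replicate 3 and lowest in replicate 4, there with 13 counts against 14 and 15 in the next libraries. Among Klf4-transfected libraries S100a16 was highest in replicate 4 and Sec14l3 in replicate 3. S100a16 was picked by closeness over these same libraries, so nothing is read from a shared order. Alox12b, a lipoxygenase gene of the epidermis, lay at 0.609 to 0.765 CPM in control and at 27.6 to 39.9 CPM in Klf4-transfected libraries. Lamb3, a laminin chain gene, lay at 21.1 to 26.7 CPM and Itgb7, an integrin gene, at 18.3 to 20.7 CPM in Klf4-transfected libraries, lower than Sec14l3 in each of them. The closeness is one of level in 8 libraries of 2 groups and was not tested. Promoter windows were matched for 4 of these 5 genes, and CCACACCC was in that of Alox12b alone. Among tested genes with a window, CCACACCC was in 4.65% of 12241, and in 12.6% of the 214 that were called higher with a log2 fold change of at least 5. That group includes Sec14l3 and was picked by the same comparison that chose it. Genes called so much higher can also have passed the filter through the Klf4-transfected libraries only, as AU021092 did. The sets were not matched for GC content or number of windows. This share was computed after the Sec14l3 window had been seen and was not tested, so nothing is read from it.

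**Figure D5:**
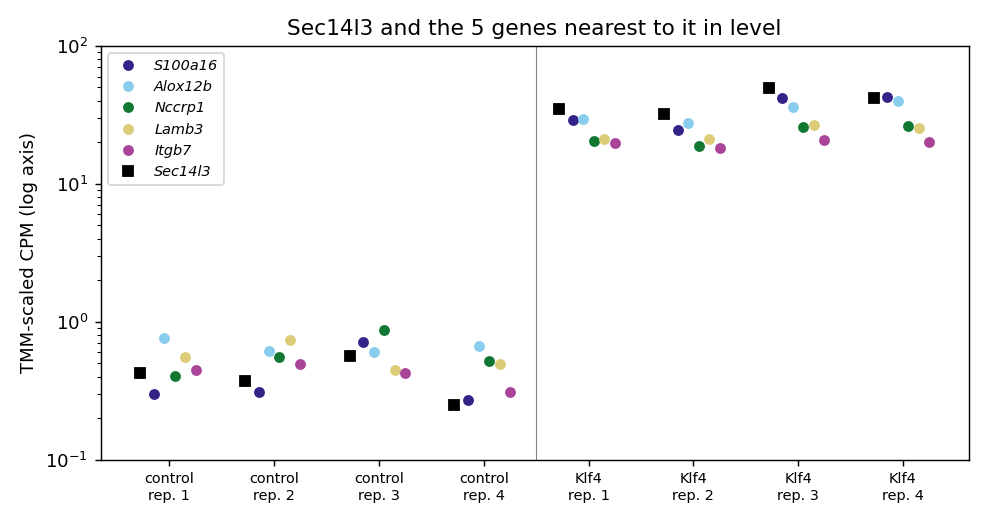
TMM-scaled CPM on a log axis of Sec14l3 (black squares) and the 5 genes nearest to it in level (coloured circles) in each of the 8 libraries. Sec14l3 and S100a16 lie closest together, and in the Klf4-transfected libraries Nccrp1, Lamb3 and Itgb7 lie below Sec14l3.

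Lists of genes related to the family by domain or pathway held 100 genes, of which 94 were tested, 24 were higher and 12 were lower, with a median log2 fold change of 0.04. These 36 of 94 are near the background of 36.6% (21.1% higher and 15.5% lower over all tested genes), against which each list below is to be read, and the lists are given as descriptions. Of the other CRAL-TRIO genes, 5 of 18 tested were higher and 1 was lower (33.3% past the threshold, median 0.03). Clvs2, which codes for clavesin 2 of clathrin-coated vesicles, was counted 2, 0, 0 and 0 times with the empty vector and 42, 19, 42 and 39 times with Klf4. Bnipl had 0, 3, 2 and 6 against 68, 34, 46 and 49 counts, and the guanine nucleotide exchange factor gene Mcf2 had 1, 0, 3 and 0 against 20, 33, 29 and 14 counts. All 3, like Sec14l4, were below the filter's level in every control library and were tested through the Klf4-transfected libraries only, so they are described with no test, and 3 of the 5 higher CRAL-TRIO genes carry that limit. Nf1, the RAS-inhibiting neurofibromin gene, was lower at -0.27 (SE 0.05, edgeR adjusted p 0.000135). Ttpa, the liver vitamin E transfer protein gene, had 0 to 6 counts in control and 5 to 13 in Klf4-transfected libraries and was not tested.

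Among 6 phosphatidylinositol transfer protein genes, Pitpna was higher at 0.32 (SE 0.03, edgeR adjusted p 6.66e-08), Pitpnm3 was higher at 0.31 (SE 0.09, edgeR adjusted p 0.00636) and Pitpnm1 was lower at -0.08 (SE 0.03, edgeR adjusted p 0.0446). Of 27 tested oxysterol-binding, START and other lipid transfer genes, 10 were higher and 3 were lower (48.1%, median 0.08). The largest changes were in Osbpl7 at 0.86 (SE 0.05), Acot11 at 0.83 (SE 0.07), the glycolipid transfer protein gene Gltp at 0.60 (SE 0.04) and Osbpl10 at 0.47 (SE 0.06). Of 12 genes with a GOLD domain, 0 were higher and 4 were lower (33.3% past the threshold), between -0.17 for Fyco1 and -0.08 for Tmed4, and none was higher at an unadjusted p under 0.05. Of 4 PRELI domain genes, Prelid3a was lower at -0.25 (SE 0.06, edgeR adjusted p 0.00207).

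Squalene and cholesterol synthesis, the pathway linked to Sec14l2, had 4 of 19 genes higher and 1 lower (26.3%, median 0.05). The higher genes included Mvd at 0.27, Hmgcs1 at 0.19 and Fdft1, which codes for squalene synthase, at 0.17, and the lower one was Lss at -0.10. Sqle, the squalene epoxidase gene, did not pass the threshold, at 173.0 ± 12.7 CPM in control cells (edgeR adjusted p 0.174). Of 8 tested genes of vitamin E handling, 3 were higher and 1 was lower (median 0.11). Cyp4f14, a gene of vitamin E breakdown, was higher at 1.63 (SE 0.38) between means of 0.170 and 0.526 CPM. Its control mean lay below the filter's level of 0.204 CPM. It could not have passed without Klf4-transfected libraries, so it is described with no test. Npc1 at 0.22 and Npc2 at 0.12 were higher, and Lpl was lower at -0.10. With scaling on abundant genes, an alternative added after the data had been seen, the calls of Pitpnm1, Tmed4, Tmed7, Lss, Lpl, Stard9 and Stard13, all lower, were lost, and all 36 calls kept their direction. That scaling moved the share of higher among called genes of the whole table from 57.7% to 72.8%.

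Markers of cell types that could carry SEC14-like genes were read beside these results. Of 17 multiciliated cell markers, chosen because Sec14l3 is known from ciliated epithelium, 14 were tested, 2 were higher and 2 were lower, and their sum was 167.2 to 173.2 CPM in control and 200.1 to 219.7 CPM in Klf4-transfected libraries. The regulator gene Foxj1 had 466 to 636 counts in control and 512 to 604 in Klf4-transfected libraries. Mcidas had 0 in all control libraries but had counts with Klf4. The lower genes were Dnaic2 at -0.15 and Cfap53 at -0.92 on the log2 scale, in a list that ran from -0.92 to 1.60. Tppp3 was higher at 1.40 (SE 0.05, edgeR adjusted p 9.11e-17), from a mean of 27.0 to 71.5 CPM, a difference larger than that of the sum, and the median log2 fold change of the list was -0.05. The 7 keratinocyte markers summed to 4.01 to 4.44 CPM in control and 22.7 to 34.4 CPM in Klf4-transfected libraries, with 2 of 3 tested genes higher. The largest log2 fold change among them was 11.6. Given these sums, that gene lay below the filter's level in control, so its call carries the limit given for Sec14l4. Krt14 had 766 to 1528 counts in Klf4-transfected libraries, against Krt5 with 9 to 13. Ivl was at 0 in all 8 libraries, and Krt1 and Flg were at 0 in control libraries but had counts with Klf4. The 7 hepatocyte markers summed to 8.12 to 15.1 CPM and 9.50 to 11.6 CPM, with 1 of 4 tested genes higher. The 5 fibroblast, blood and endothelial markers summed to 6.65 to 7.99 CPM in control and 9.20 to 10.7 CPM in Klf4-transfected libraries. The 1 higher gene of the 3 tested was Col1a1, from a mean of 1.91 to 3.98 CPM, while Col1a2 and Pecam1 did not pass the threshold and the blood marker Ptprc averaged 0.0565 and 0.0246 CPM. The 5 alpha-cell markers summed to 232.3 to 265.4 CPM and 200.9 to 247.5 CPM, with 2 of 4 tested genes higher and 1 lower. The largest log2 fold change of that list was 6.37. Irx1 was at 0 in all control libraries but had counts with Klf4, so any call of it would carry the limit given for Sec14l4. The 8 beta-cell markers, which define the line, summed to 25113 to 31851 CPM and 23440 to 32106 CPM, with 5 lower. In bulk RNA, more cells of a type and more RNA per cell cannot be told apart, and the part of these markers in the SEC14-like changes was not tested.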

How the data were processed

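Polyadenylated RNA of 8 MIN6 libraries was measured as whole-number read counts per gene, which the authors deposited without normalisation, 1 column per library. Per the submitters' processing notes, FastQC, STAR, featureCounts, edgeR and the mm10 build were used, with no versions or strand setting, and per the name given to the counts reads were trimmed with cutadapt.

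Counts were fitted in edgeR 4.0.16 (limma 3.58.1, R 4.3.3) after filterByExpr (minimum count 10, 18266 of 55536 genes kept) and TMM scaling, with terms for batch and plasmid. P-values of the quasi-likelihood test were adjusted by Benjamini-Hochberg over all tested genes, with 0.05 as the threshold. The SE is the log2 fold change divided by the square root of F. Lengths and positions came from GENCODE M21 (GRCm38), promoter windows from RefSeq (GRCm38.p6). The procedure was run on simulated counts with the same dispersion for every gene. Changes were placed only in well-counted genes, so the simulation does not cover genes as low in control as Sec14l3 and Sec14l4.

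The members, lists and tests were chosen with earlier results of these data known. Named were the members, Klf4, the 5 genes nearest to Sec14l3 (log2 CPM, prior count 2), the 3 nearest protein-coding genes per side, and up to 4 called genes of largest change per list; Sqle, Ttpa, Npc2, Tmed4 and marker genes were added after their values were seen, as were Stard9, Stard13 and Ubn1 with other neighbours of smaller change. One listed symbol, Stard14, had no match.

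No 2 replicates were alike within counting error (chi-square over its degrees of freedom at least 3.96). Nothing in the labels says what separated the cultures beyond biological replicate. Deviations from group means correlated at 0.49 to 0.64 between same-numbered libraries, at 0.50 to 0.60 between libraries of a batch with other numbers and at -0.66 to -0.47 between batches. The ranges for same and other numbers within a batch overlapped. By these values libraries went together by batch, and the numbers, taken from the titles, showed no pairing beyond batch. Alternatives were no batch term, a replicate block, DESeq2 1.42.0 size factors and Wald test, limma-voom, other filters, scaling on genes of average log2 CPM of at least 6 (added later), each batch alone and each library left out.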

Additional observations from a re-analysis of the deposited data

Results flagged for a closer look

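A library far from the other 3 of its group was looked for 107 times over 54 named genes, and chance flags about 1 in 20. It was found 3 times, and for none of the 5 SEC14-like genes. Control replicate 3 had 0.710 CPM of S100a16, where the remaining control libraries had 0.269 to 0.308 CPM. Klf4-transfected replicate 1 had 25.6 CPM of Alg1, a neighbour of Sec14l5, where the others had 23.7 to 24.04 CPM. Control replicate 1 had 0.0425 CPM of Clvs2, which is 2 counts, where the other control libraries had 0.

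The effect of the plasmid on Klf4 itself was larger in batch 2 than in batch 1 by 0.37 on the log2 scale (edgeR interaction test, adjusted p 0.0057). For Sec14l3 the same difference was 0.41 and did not pass the threshold (edgeR adjusted p 0.779).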

How the results depend on the processing

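Sec14l3 had log2 fold changes of 6.35 to 6.81 in all 18 alternatives. Each refitted all or part of the libraries in which Sec14l3 was chosen by its change, so this range is no sign of stability. Sec14l4 lay at 2.37 to 3.82 in the 17 that gave it a value. This is no sign of stability either, since its filter pass came from the Klf4-transfected libraries. A filter at 1 CPM in 4 libraries left Sec14l4 out. Sec14l1 (0.002 to 0.09) and Sec14l2 (0.08 to 0.39) stayed short of the threshold in all 18. Sec14l5 lost its call in 6 of 18: its log2 fold change was 0.35 without the batch term, 0.27 in batch 1 alone, and 0.28 to 0.41 with each library left out in turn. The replicate block gave 6284 changed genes against 6684 and changed no call among the 5 genes. Without the batch term 4116 genes changed, and 19 genes of the related lists against 36. With the longest coding transcript as length, 9 of 10 pairs of members kept their order in Klf4-transfected cells. Genes with a different effect between batches numbered 140, and 48 to 261 with each library left out. Differences between batches in the effect turned sign without 1 library for Sec14l3 (range -0.064 to 1.11) and Sec14l5 (down to -0.012), and the batch value of Sec14l4, -0.14, ranged from -0.51 to 0.062, turning sign in 3 cases (0.050, 0.062 and 0.059), none past the threshold. The causes were not tested. Depth limits Sec14l4 most, at 0 to 7 counts per control library.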
